A study of Mus musculus with 45 samples.

Results

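The genes described here are 10 CC chemokine ligands measured in mouse macrophages, Ccl2, Ccl3, Ccl4, Ccl5, Ccl7, Ccl9, Ccl12, Ccl17, Ccl22 and Ccl24, chosen by name. All 10 were found by symbol in the CPM table of 11900 genes and by Ensembl identifier in the count table of 29307 genes. RNA was sequenced from 45 cultures of bone marrow-derived macrophages, which are marrow cells grown into macrophages for 6 days with M-CSF, from C57BL/6N mice aged 6 to 10 weeks. Each of 3 polarizations and 3 Famin genotypes had 5 libraries. M0 cells were left unstimulated, M1 cells received 50 ng/mL IFN-γ with 20 ng/mL LPS, and M2 cells received 20 ng/mL IL-4, all for 24 h. Every mouse carried an engineered Famin coding allele. Famin p.254I stands for the human variant without disease risk, Famin p.254V for the variant linked to Crohn's disease and leprosy, and Famin p.284R for the variant behind a monogenic disease, and littermates came from heterozygous breeding. None of these groups is an unedited strain. The counts per gene do not show which coding allele a library carried, so the genotypes rest on the labels. Libraries with the same genotype and number were taken to be 3 cultures of 1 mouse, which is inferred from the labels, giving 15 mice, and no label says whether mice with the same number in different genotypes shared a litter or a day.

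CC chemokines are small secreted proteins with adjacent cysteines that bind G protein-coupled receptors and direct the movement of leukocytes. Macrophages are a major source of them. Those induced by microbial products and interferon mainly draw monocytes and effector T cells, and those induced by IL-4 mainly draw T helper 2 cells, regulatory T cells and eosinophils. Ccl2, Ccl7 and Ccl12 are monocyte chemoattractants acting mainly on Ccr2. Ccl3 and Ccl4 are macrophage inflammatory proteins, and Ccl3, Ccl5 and Ccl9 act on Ccr1. Ccl17 and Ccl22 share the receptor Ccr4, and Ccl24 is an eotaxin that acts on Ccr3.

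The genes lie on 3 chromosomes of the mm10 assembly, as annotated by GENCODE on the same assembly. Neighbours are members next to each other among those described, whatever other genes lie between them. Ccl2 (ENSMUSG00000035385, chr11:82035571-82037453, plus strand), Ccl7 (ENSMUSG00000035373, chr11:82045712-82047525, plus strand) and Ccl12 (ENSMUSG00000035352, chr11:82101845-82103400, plus strand) are neighbours. A second run on chromosome 11 holds Ccl5 (ENSMUSG00000035042, chr11:83525778-83530518, minus strand), Ccl9 (ENSMUSG00000019122, chr11:83572919-83578636, minus strand), Ccl3 (ENSMUSG00000000982, chr11:83647844-83649355, minus strand) and Ccl4 (ENSMUSG00000018930, chr11:83662584-83664683, plus strand), of which the last pair are 13.2 kb apart. Ccl22 (ENSMUSG00000031779, chr8:94745590-94751699, plus strand) and Ccl17 (ENSMUSG00000031780, chr8:94810453-94812036, plus strand) are 58.8 kb apart on chromosome 8, and Ccl24 (ENSMUSG00000004814, chr5:135569937-135573049, minus strand) lies alone on chromosome 5. Only Ccl2 overlaps another annotated gene, the antisense Gm17268, which had no read in any of the 45 libraries.

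Library totals ran from 17239009 to 43740283 reads (median 27553642). Macrophage markers were present throughout, with Csf1r, the M-CSF receptor, at a median of 3541 CPM in M0. The T cell markers Cd3e, Cd3d, Cd3g and Cd8a did not exceed 0.122 CPM in any library, whereas Cd4 reached 46.6 CPM in M0. Levels are given as CPM, which are reads scaled to the library total, with TMM factors, unless stated otherwise. In these bulk cultures, fewer expressing cells and less RNA per cell cannot be told apart. Several libraries stood apart. Mouse 4 of Famin p.254I had high Ccl5 in M0 and in M2. The M1 library of mouse 5 of Famin p.254I had raised levels of M2 markers, with Retnla at 49.1 CPM and Arg1 at 40.8 CPM. The other 14 M1 libraries held at most 0.249 and 0.912 CPM. The source of the raised levels was not tested. The 3 M1 libraries numbered 2 were low in Ccl5. Results that rest on them are given with and without them.

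The stimuli went with different changes in these genes, on a background where 77.3% of all genes tested were called with IFN-γ and LPS and 76.4% with IL-4. With IFN-γ and LPS, Ccl5 and Ccl12 rose by more than 30-fold, Ccl2 and Ccl7 rose about 2-fold, and Ccl3, Ccl9 and Ccl24 fell. With IL-4, 8 of the 10 rose and none fell, with Ccl17, Ccl22 and Ccl24 climbing from near 0. With all libraries in the edgeR fit, no difference between Famin genotypes passed the test for any of the 10.

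In M1 against M0, 7 of the 10 members were called at an adjusted p under 0.05 by edgeR's quasi-likelihood test over 12905 genes, 4 higher and 3 lower. Over all genes tested, 77.3% were called, 37% higher and 40.3% lower, so the share of members called was near that of all genes. In M2 against M0, 8 members were called, all higher, where 76.4% of all genes were called, 36.8% higher and 39.6% lower. In M1 against M2 all 10 were called, 2 higher in M1 and 8 lower, where 79.1% of all genes were called, 39% higher and 40.1% lower. The median log2 fold change of the members was 0.26, 1.99 and -2.93 in the 3 comparisons, and that of all genes tested lay between -0.027 and -0.0089. The ranges of the 15 libraries did not overlap for 3 members in M1 against M0 (28.6% of all genes), 7 in M2 against M0 (23.4%) and 7 in M1 against M2 (35.7%). The same numbers of members, 7, 8 and 10, were called without mouse 4 of Famin p.254I, without the M1 library of mouse 5 and without all libraries numbered 2.

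**Figure D1:**
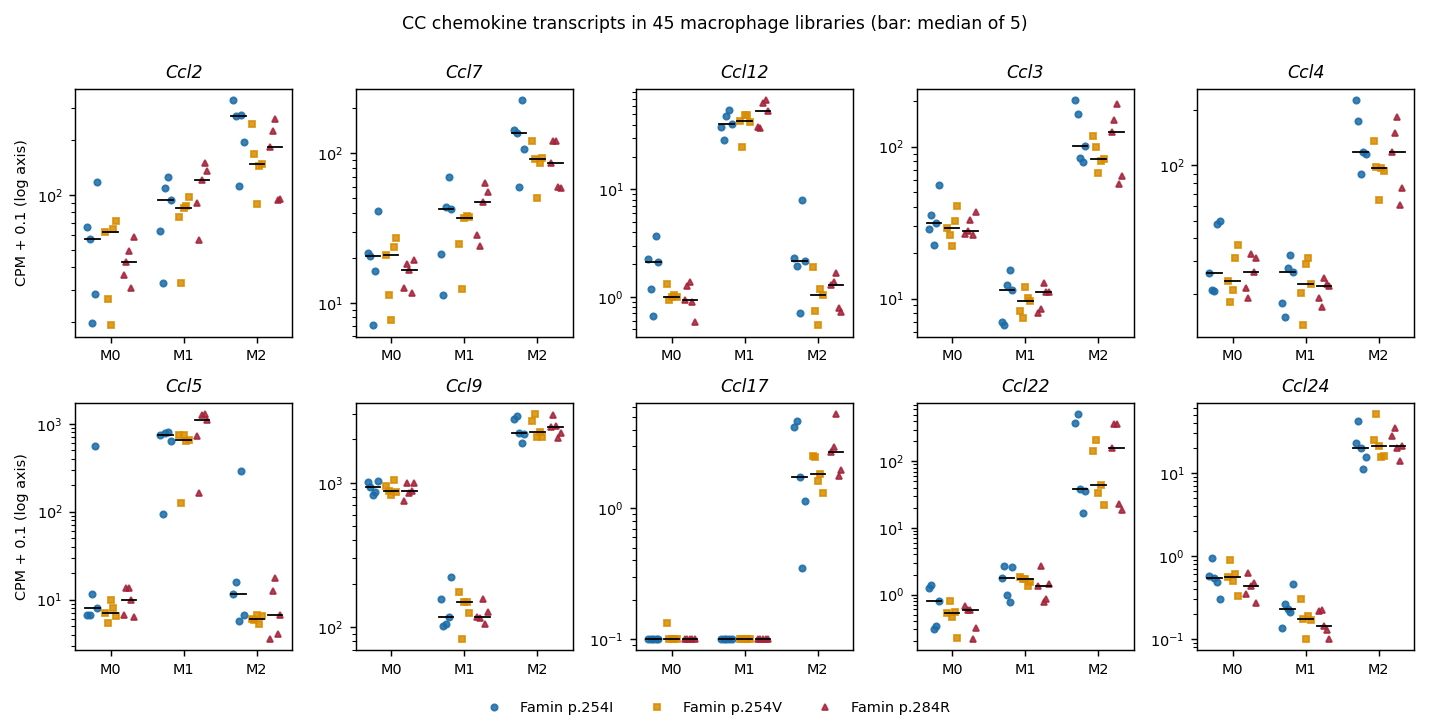
Level of each CC chemokine in every library, as CPM + 0.1 on a log axis, for M0, M1 and M2 cells, with colour and symbol for the Famin genotype and a bar at the median of 5 libraries. Ccl5 and Ccl12 are high in M1, Ccl17, Ccl22 and Ccl24 are high in M2, and a lone Famin p.254I library stands at 563 CPM of Ccl5 in M0.

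Ccl5, also called RANTES, which attracts T cells and monocytes, rose from a low level to the highest of the 10 with IFN-γ and LPS. In M0, the Famin p.254I libraries held 6.58, 6.64, 11.4, 563 and 7.83 CPM in order of their number, the Famin p.254V libraries 7.0, 5.36, 9.74, 7.91 and 6.35 CPM, and the Famin p.284R libraries 6.57, 13.4, 13.5, 9.78 and 6.24 CPM. Apart from mouse 4 of Famin p.254I, M0 levels thus did not exceed 13.5 CPM. In M1, they were 753, 93.3, 783, 812 and 641 CPM in Famin p.254I, 737, 124, 749, 643 and 648 CPM in Famin p.254V, and 726, 165, 1252, 1286 and 1103 CPM in Famin p.284R. Ccl5 was higher in M1 than in M0 in 15 of 15 mice, and the ranges overlapped only because the M0 library of mouse 4 exceeded the M1 libraries numbered 2. The log2 fold change was 5.07 ± 0.63 (SE; 33.6-fold; adjusted p = 2.15e-09), and without mouse 4 of Famin p.254I it was 6.33 and without the libraries numbered 2 it was 5.27. In M2, Ccl5 was 11.6, 15.7, 5.63, 288 and 6.62 CPM in Famin p.254I, 5.84, 5.75, 6.65, 5.17 and 6.46 CPM in Famin p.254V, and 3.45, 12.3, 17.4, 3.97 and 6.59 CPM in Famin p.284R. The M2 difference from M0 was -0.44 on the log2 scale (95% interval -1.58 to 0.70; adjusted p = 0.484), and without mouse 4 it was -0.045 (adjusted p = 0.899). Leaving out only the M0 library of that mouse, with its high M2 library kept, gave 0.86 (adjusted p = 0.0753).

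Ccl12, a monocyte chemoattractant found in mice, followed the same course from a lower level. It ranged from 0.483 to 3.56 CPM in M0 (median 0.950), from 24.6 to 67.3 CPM in M1 (median 42.8) and from 0.443 to 7.92 CPM in M2 (median 1.20). The M1 range lay above both others. The log2 fold change from M0 to M1 was 5.24 ± 0.24 (SE; 37.8-fold; adjusted p = 2.58e-22), and from M0 to M2 it was 0.29 ± 0.27 (SE; adjusted p = 0.339). The highest M0 and M2 values both came from mouse 4 of Famin p.254I.

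Ccl2 and Ccl7, the other monocyte chemoattractants among the members, were higher with either stimulus and highest with IL-4. Ccl2 ran from 19.1 to 118 CPM in M0 (median 48.7), from 32.6 to 150 CPM in M1 (median 89.6) and from 89.0 to 330 CPM in M2 (median 183). Ccl7 ran from 6.99 to 40.9 CPM in M0 (median 18.2), from 11.2 to 69.4 CPM in M1 (median 37.3) and from 50.5 to 227 CPM in M2 (median 93.4). M0 and M1 overlapped for both genes. From M0 to M1, the log2 fold change was 0.84 ± 0.24 for Ccl2 (SE; adjusted p = 0.00153; higher in 12 of 15 mice) and 1.00 ± 0.24 for Ccl7 (SE; adjusted p = 2.43e-04; higher in 13 of 15 mice). From M0 to M2, it was 1.90 ± 0.24 for Ccl2 (adjusted p = 4.38e-09) and 2.49 ± 0.24 for Ccl7 (adjusted p = 8.68e-12), each higher in 15 of 15 mice. Of the 3 neighbours on chromosome 11, Ccl12 was thus the only one whose M2 difference from M0 was not called.

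Ccl3 and Ccl4, the macrophage inflammatory proteins 1-alpha and 1-beta, rose together with IL-4 and differed with IFN-γ and LPS. Ccl3 ran from 22.0 to 55.9 CPM in M0, from 6.56 to 15.4 CPM in M1 and from 56.4 to 201 CPM in M2, and none of the 3 ranges overlapped. Its log2 fold change was -1.66 ± 0.17 in M1 (SE; adjusted p = 1.95e-11) and 1.80 ± 0.16 in M2 (SE; adjusted p = 8.51e-13), each in 15 of 15 mice. Ccl4 ran from 17.9 to 49.4 CPM in M0, from 13.4 to 32.2 CPM in M1 and from 60.4 to 226 CPM in M2. Its M1 difference was -0.33 ± 0.17 (SE; adjusted p = 0.0807; lower in 13 of 15 mice), short of the threshold, and without mouse 3 of Famin p.254I it was -0.39 (adjusted p = 0.0435). In M2, Ccl4 rose by 2.07 ± 0.17 (SE; adjusted p = 9.51e-14) with no overlap.

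Ccl9, also known as MIP-1-gamma, was the most abundant member per kb in M0 and M2, where it also spanned the narrowest range among mice. It ran from 749 to 1040 CPM in M0 (median 879), from 82.7 to 222 CPM in M1 (median 126) and from 1883 to 2992 CPM in M2 (median 2264), so that the highest library held 1.39, 2.69 and 1.59 times the lowest. The 3 ranges were separate. The log2 fold change was -2.77 ± 0.10 in M1 (SE; 6.83-fold lower; adjusted p = 1.58e-25) and 1.40 ± 0.10 in M2 (SE; 2.64-fold higher; adjusted p = 3.99e-16). The highest M1 value was that of the M1 library of mouse 5 of Famin p.254I, and the M1 difference was -2.85 without that library.

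Ccl17, Ccl22 and Ccl24 belonged to the IL-4 state. Ccl17 had 0 reads in all 15 M1 libraries, 1 read in 1 of the 15 M0 libraries and 921 reads in M2, where every library had reads. Over pooled libraries the M2 level was 995 times that of M0 (95% interval 178 to 39352) and at least 313-fold higher than in M1, taking 3 reads over the group as the limit of a count of 0. This interval and limit cover counting error only. Its M2 levels were 4.10, 4.55, 1.64, 0.247 and 1.04 CPM in Famin p.254I, 2.40, 2.37, 1.52, 1.72 and 1.22 CPM in Famin p.254V, and 2.59, 2.87, 5.15, 1.66 and 1.85 CPM in Famin p.284R, so it stayed a low transcript even with IL-4.

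Ccl22, the partner of Ccl17 at Ccr4, was far more abundant in M2 and spread widely. In M2 it held 374, 510, 38.0, 16.6 and 35.5 CPM in Famin p.254I, 142, 210, 33.5, 43.4 and 21.9 CPM in Famin p.254V, and 158, 361, 368, 22.5 and 18.7 CPM in Famin p.284R. Mice numbered 1 and 2 were high in all 3 genotypes, mice numbered 4 and 5 were low in all 3, and mice numbered 3 were high only in Famin p.284R. All 15 exceeded the highest M0 library (1.29 CPM), with a log2 fold change of 8.26 ± 0.60 (SE; 307-fold; adjusted p = 1.53e-15). In M1, Ccl22 ran from 0.677 to 2.62 CPM against 0.115 to 1.29 CPM in M0 and was higher in 15 of 15 mice. That difference of 1.62 (95% interval 0.08 to 3.16) did not pass the threshold (adjusted p = 0.0507), but it did with the replicate number as a replicate block (1.67, adjusted p = 0.0164) and with the mouse as a block (1.77, adjusted p = 0.00152).

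Ccl24, eotaxin-2, which attracts eosinophils, ran from 0.176 to 0.859 CPM in M0, from 0 to 0.359 CPM in M1 and from 10.9 to 50.8 CPM in M2. Its M2 levels were 22.7, 41.5, 19.98, 10.9 and 15.6 CPM in Famin p.254I, 24.5, 50.8, 21.1, 15.5 and 15.9 CPM in Famin p.254V, and 28.0, 34.5, 19.6, 13.7 and 20.8 CPM in Famin p.284R. The log2 fold change was 5.79 ± 0.24 in M2 (SE; 55.3-fold; adjusted p = 1.71e-23) and -2.10 ± 0.43 in M1 (SE; adjusted p = 3.15e-05). The highest M1 value came again from the library of mouse 5 of Famin p.254I, and without it the M1 difference was -2.23.

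Set directly against each other, M1 and M2 cells differed in all 10. Ccl5 was 45.5-fold and Ccl12 31.0-fold higher in M1 (adjusted p = 4.36e-10 and 8.13e-22), each in 15 of 15 mice. Without mouse 4 of Famin p.254I the Ccl5 difference was 6.37 on the log2 scale, against 5.51 with it. Ccl22 was 99.8-fold, Ccl24 238-fold, Ccl9 18.04-fold, Ccl3 10.99-fold and Ccl4 5.25-fold lower in M1, with no overlap between the groups. Ccl7 and Ccl2 differed least, 2.79-fold and 2.09-fold lower in M1 with overlapping ranges (adjusted p = 4.03e-07 and 9.05e-05).

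**Figure D2:**
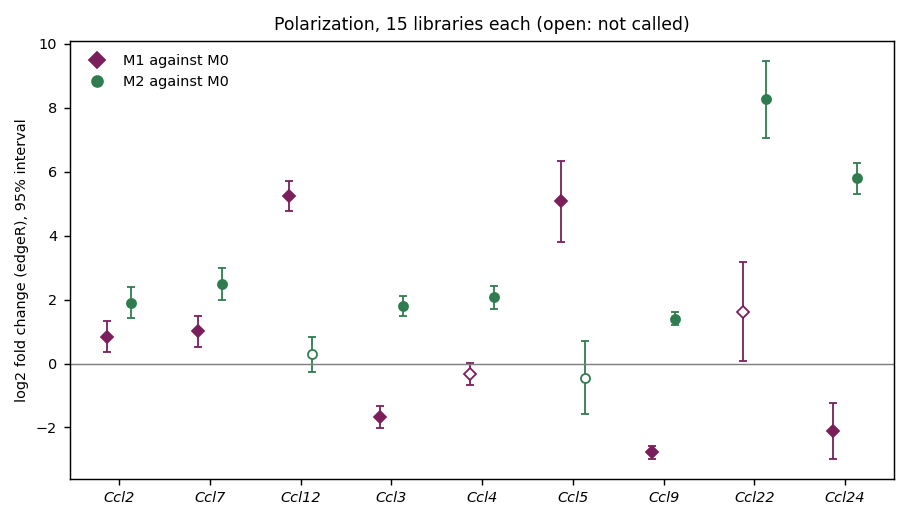
The log2 fold change of M1 (diamonds) and M2 (circles) against M0 with its 95% interval, from edgeR over 15 libraries each, for 9 members, with open symbols where the difference was not called. Ccl17 is left out because it had 1 read in M0 and none in M1. Ccl12 and Ccl5 stand above 5 in M1 and near 0 in M2, and Ccl22 stands at 8.26 in M2.

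The sequence before the start of transcription is shown for genes at the 2 ends of this pattern, 2 neighbours on chromosome 8 that were high in M2 and 1 gene that was high in M1. RefSeq promoter sequences were matched for 5 of the 10 members, on GRCm38.p6, and each was cut at the first transcribed base of RefSeq or GENCODE, whichever came first. Capitals mark matches to the searched motifs named after the sequences.

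Ccl17 (chr8:94810203-94810452, plus strand): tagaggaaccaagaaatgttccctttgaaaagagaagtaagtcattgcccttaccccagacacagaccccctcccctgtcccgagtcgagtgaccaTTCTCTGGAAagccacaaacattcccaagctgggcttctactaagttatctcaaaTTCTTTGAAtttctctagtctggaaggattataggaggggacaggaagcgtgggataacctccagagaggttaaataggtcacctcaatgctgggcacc

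Ccl22 (chr8:94745434-94745589, plus strand): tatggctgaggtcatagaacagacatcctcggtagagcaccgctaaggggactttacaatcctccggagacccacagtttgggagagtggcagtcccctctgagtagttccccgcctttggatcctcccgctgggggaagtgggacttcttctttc

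Ccl12 (chr11:82101595-82101844, plus strand): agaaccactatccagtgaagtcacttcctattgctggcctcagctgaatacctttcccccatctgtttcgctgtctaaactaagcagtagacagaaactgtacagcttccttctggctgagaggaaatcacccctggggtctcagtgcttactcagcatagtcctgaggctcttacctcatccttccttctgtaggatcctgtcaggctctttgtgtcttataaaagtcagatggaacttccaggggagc

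Both strands were searched for the STAT6 motif TTCNNNNGAA, the GAS motif TTCNNNGAA, the ISRE motif GAAANNGAAA and the NF-κB consensus, where N is any base. The matches found did not overlap each other. The Ccl17 window held a STAT6 match, TTCTCTGGAA, and a GAS match, TTCTTTGAA, which occur in 5.85% and 7.01% of 32817 promoter windows of 250 bases. The Ccl22 window of 156 bases and the Ccl12 window of 250 bases held none of the 4. In windows of 250 bases the ISRE and the NF-κB consensus occur in 2.97% and 7.25%, and among the other members with a sequence only Ccl9 held a match, to NF-κB. A match describes letters only, and a window without one says nothing about the factor elsewhere.

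Between genes, levels were compared per kb of annotated exon. In M0, Ccl9 came first at a median of 289 CPM per kb, apart from the next, and Ccl2, Ccl4 and Ccl3 followed at 42.8, 39.1 and 37.6 CPM per kb with overlapping ranges. In M1 the order changed, with Ccl5 first at 768 CPM per kb and Ccl12 and Ccl2 next at 79.7 and 78.7 CPM per kb, and Ccl9 fell behind Ccl7 to 41.4 CPM per kb. The M1 ranges of Ccl5 and Ccl12 overlapped through the lowest library numbered 2. In M2, Ccl9 was first again at 744 CPM per kb, apart from Ccl4, Ccl2, Ccl3 and Ccl7, which lay at 174, 161, 130 and 117 CPM per kb with overlapping ranges. Ccl22 and Ccl24 followed at 18.7 and 16.0 CPM per kb, and Ccl5, Ccl17 and Ccl12 came last at 6.86, 3.6 and 2.23 CPM per kb, with each of these ranges overlapping the next.

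The Famin genotypes were compared within each polarization to ask whether the coding variant changed these transcripts. None of the 10 members was called in any of the 9 comparisons. For Famin p.284R against Famin p.254I, 0%, 0.263% and 0.00775% of all genes were called in M0, M1 and M2, for Famin p.254V against Famin p.254I it was 0% in each, and for Famin p.284R against Famin p.254V it was 0%, 0.0775% and 0%. Averaged over the polarizations, 0 members were called where 0.0155% of all genes were called for Famin p.284R and 0.0155% for Famin p.254V, each against Famin p.254I. Of the 4 tests of whether a genotype changed the response from M0 to M1 or to M2, 0 members and 0% of genes were called. At an unadjusted p under 0.05 in edgeR, 2 members, Ccl5 and Ccl12, were counted in M0 and in M2 for either variant against Famin p.254I. Over all 12905 genes, 140 in M0 and 148 in M2 were counted for Famin p.284R, and 231 and 329 for Famin p.254V. In M1, 0 members were counted, where 864 and 120 genes were. For Famin p.284R against Famin p.254V, 0 members were counted in each polarization, where 53, 799 and 310 genes were in M0, M1 and M2. Among the tests of the response from M0 to M1, 2 members were counted for Famin p.284R and 1 for Famin p.254V. Over all genes, 356 and 111 were counted. From M0 to M2, 0 members were counted, where 70 and 167 genes were. Averaged over the polarizations, 2 members, again Ccl5 and Ccl12, were counted for either variant against Famin p.254I. Over all genes, 565 were counted for Famin p.284R and 323 for Famin p.254V.

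Those Ccl5 and Ccl12 differences moved towards 0 without mouse 4 of Famin p.254I. In M0, Ccl5 was -4.04 (95% interval -6.17 to -1.91; adjusted p = 1) in Famin p.254V and -3.57 (95% interval -5.64 to -1.51; adjusted p = 1) in Famin p.284R on the log2 scale against Famin p.254I. Without that mouse, these were -0.16 and 0.30. Ccl12 in M2 was -1.67 in Famin p.254V (adjusted p = 0.999) and -1.50 in Famin p.284R (adjusted p = 1), and without that mouse it was -0.81 and -0.65. Averaged over polarizations, Ccl5 in Famin p.254V against Famin p.254I was -2.53 (adjusted p = 0.250 in edgeR), -0.29 without mouse 4 and -0.45 with the counts of all cultures of a mouse summed. It was called by DESeq2 (-2.52, adjusted p = 0.00932) and, in edgeR, without mouse 2 of Famin p.254I (-2.81, adjusted p = 0.0393). The test that averages the polarizations treats the cultures of a mouse as separate samples, which can make its p too small. It also has no term for the replicate number, which can make its p too large. With the number as a block within each polarization, the averaged Ccl5 difference of Famin p.254V was -1.27 (adjusted p = 0.599 in edgeR).

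**Figure D3:**
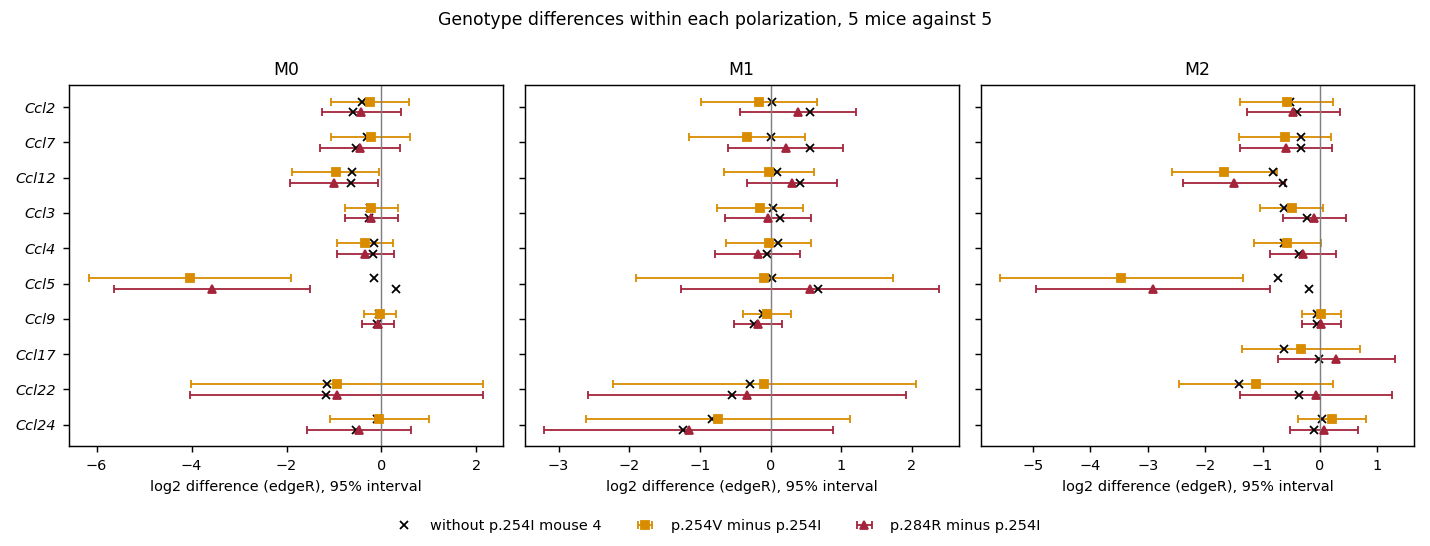
Log2 difference of Famin p.254V (squares) and Famin p.284R (triangles) from Famin p.254I within M0, M1 and M2, with 95% intervals from edgeR over 5 mice against 5, and black crosses for the same difference without mouse 4 of Famin p.254I. Ccl17 is shown in M2 only, and each panel has its own horizontal scale. Ccl5 in M0 moves from -4.04 to -0.16 for Famin p.254V once that mouse is left out.

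In M1, Famin p.284R had the highest means of Ccl5, Ccl2, Ccl7 and Ccl12 and the lowest of Ccl4, Ccl9, Ccl22 and Ccl24. Ccl5 averaged 907 ± 470 CPM in Famin p.284R, 617 ± 300 CPM in Famin p.254I and 580 ± 260 CPM in Famin p.254V (SD, n = 5), and the first was above Famin p.254I in 4 of 5 numbers. The difference of 0.56 had a 95% interval from -1.27 to 2.38 (adjusted p = 0.988). Ccl2 averaged 110 ± 37.6 CPM in Famin p.284R against 84.5 ± 36.8 CPM in Famin p.254I (SD, n = 5) and was higher in 5 of 5 numbers, with a difference of 0.39 (95% interval -0.43 to 1.20; adjusted p = 0.966). These intervals come from the fit without a term for the number. With the number as a replicate block within each polarization in edgeR, this Ccl2 difference was 0.44 (adjusted p = 0.575) and the Ccl5 difference was 0.59 (adjusted p = 0.776). Ccl9 left the least room for a difference, with a 95% interval from -0.32 to 0.36 for its M2 difference of Famin p.284R from Famin p.254I.

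Mouse 4 of Famin p.254I stood furthest from the other mice in Ccl5. Its M0 Ccl5 of 563 CPM was 75.9 times the median of the other 14 M0 libraries and 69.3% of its own M1 level. Ccl12 was 3.84 times the others' median in M0 and 6.97 times in M2, and Ccl7 was 2.45 times in M2. Its Ccl17, Ccl22 and Ccl24 in M2 were the lowest of the 15, at 0.247, 16.6 and 10.9 CPM. The M1 markers Cxcl9 and Nos2 were the highest of the 15 in its M0 culture, at 1.45 CPM (3.76 times the others' median) and 0.156 CPM (others at most 0.0879 CPM), and Cxcl9 was also the highest in its M2 culture. Its M0 level of Cxcl9 was 0.108% of its own M1 level. The M1 markers Cxcl10 and Tnf lay within the range of the other M0 libraries. They were 14.9 and 14.2 CPM, against medians of 14.1 and 12.8 CPM. In M0, Saa3, an acute-phase protein, stood at 169.9 CPM against at most 18.4 CPM in the other M0 libraries and Fcgr1, the high-affinity IgG receptor, at 1098 CPM against at most 463 CPM. The M2 marker Retnla was 1287 CPM in its M2 culture, the lowest of the 15, and Mrc1, the mannose receptor, was 2197 CPM, the highest. The part of these genes in the Ccl5 level was not tested.

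Some members also moved with the replicate number across genotypes. In M1, the number accounted for 97.4% of the variance of Ccl5 within groups, 94.7% of that of Ccl2, 91.7% of that of Ccl7 and 90.0% of that of Ccl12, on the log2(CPM + 1) scale. It also accounted for 87.0% of that of Ccl4, 82.0% of that of Ccl3 and 66.8% of that of Ccl22. The median over all genes tested was 59.2%, and Ccl9 and Ccl24 lay below it at 42.9% and 15.4%. Ccl22 had its highest average in the libraries numbered 2. In Ccl2, Ccl3, Ccl4, Ccl5, Ccl7 and Ccl12 the libraries numbered 2 were the low ones on average, with Ccl5 between 93.3 and 165 CPM against 641 to 1286 CPM in the other 12. Some M1 markers moved with them, as Cxcl9 averaged 1374 CPM over the 3 libraries numbered 2 and between 3024 and 4029 CPM over each of the other numbers, and Nos2, inducible nitric oxide synthase, averaged 5.51 CPM against 21.2 to 62.4 CPM. Tnf averaged 35.9 CPM against 37.3 to 79.9 CPM, and Cxcl10 averaged 388 CPM, within the range of the others. In M2, the number accounted for 93.2% of the variance of Ccl24, 87.4% of that of Ccl9 and 78.0% of that of Ccl22, beside a median of 54.3%, and for 19.4% to 42.6% of that of Ccl5, Ccl7, Ccl12, Ccl2 and Ccl4. In M0, Ccl24 (92.4%), Ccl4 (73.3%) and Ccl3 (68.5%) lay above the median of 66.2%, and the other 7 members lay below it. The M2 markers did not move as 1 group in the M2 cultures. In the M2 libraries numbered 2, Arg1 and Retnla had their highest averages (1402 and 5412 CPM), Mrc1 had its lowest (973 CPM, against 1267 to 1669 CPM in the others), and Chil3 and Mgl2 lay within the range of the other numbers. Whether the numbers stand for a litter, a day or a lane is not given, and their part in the result was not tested.

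**Figure D4:**
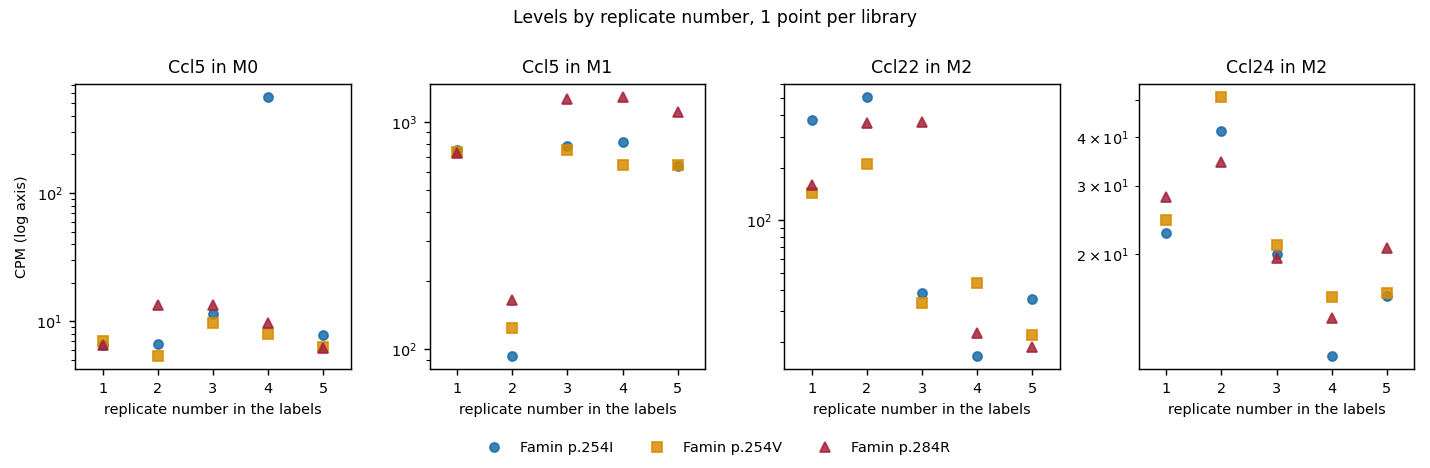
Ccl5 in M0 and M1 and Ccl22 and Ccl24 in M2 by replicate number, 1 point per library in CPM on a log axis, coloured by Famin genotype. The M1 libraries numbered 2 hold 93.3, 124 and 165 CPM of Ccl5, and the M2 libraries numbered 1 and 2 hold between 142 and 510 CPM of Ccl22.

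Within groups, several members varied together. Deviations of log2(CPM + 1) from the 9 group means were correlated over the 45 libraries, which share mice and numbers, so these are descriptions without a test. Ccl2 and Ccl7 had a Pearson's r of 0.94, Ccl3 and Ccl4 0.87, and Ccl2 and Ccl3 0.79. Ccl17 and Ccl22, neighbours on chromosome 8, had 0.86, and Ccl22 and Ccl24, on different chromosomes, had 0.75. As Ccl17 had almost no reads outside M2, its values rest on the M2 libraries, where r with Ccl22 was 0.89. In those libraries Ccl22 had a higher r with Ccl3 (0.93) and with Ccl9 (0.92), which lie on chromosome 11. Ccl5 and Ccl12 had 0.76, falling to 0.63 without mouse 4 of Famin p.254I. Between Ccl5 and Ccl22 r was -0.17 over all libraries, 0.065 without mouse 4 of Famin p.254I and -0.66 within M1.

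**Figure D5:**
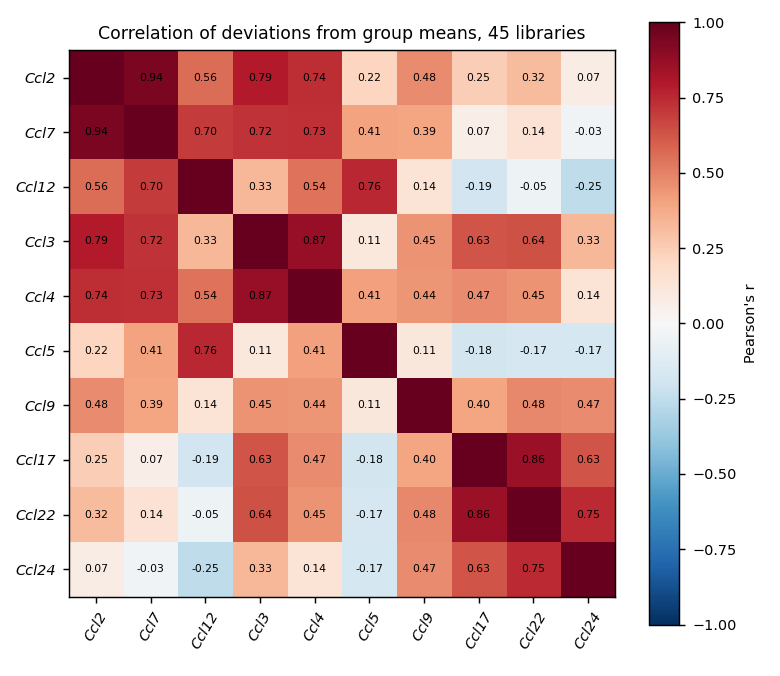
Pearson's r between members over 45 libraries, from deviations of log2(CPM + 1) from the group means, with red for positive and blue for negative values. Ccl2, Ccl7, Ccl3 and Ccl4 had r between 0.72 and 0.94 with each other, and Ccl17, Ccl22 and Ccl24 had r between 0.63 and 0.86. These sets were not apart, as Ccl3 had 0.64 with Ccl22 and 0.63 with Ccl17. The values for Ccl17 rest on the M2 libraries.

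Among genes outside the family with a mean of at least 1 CPM, those most like each member by the same measure were Plau (r = 0.86) and Rars (0.84) for Ccl2, Rgs1 (0.90) and Bcl2l1 (0.89) for Ccl7, and Saa3 (0.79) and Ifitm3 (0.76) for Ccl12. For Ccl5 they were Oas1g (0.92) and Saa3 (0.92), and both, like Ifitm3, were above the other 14 mice in mouse 4 of Famin p.254I in M0 and in M2. For Ccl3 they were Phlda1 (0.86) and Gtpbp4 (0.85), for Ccl4 Bmt2 (0.85) and Calcrl (0.84), and for Ccl9 Pigx (0.76) and Atp5c1 (0.74). For Ccl17 they were Mt3 (0.94) and Bcat1 (0.92), for Ccl22 Car2 (0.93) and Syt7 (0.93), and for Ccl24 Slamf1 (0.87) and Dstn (0.83). The values for Ccl17 again rest on the M2 libraries.

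Of 12 other CC ligands in the count table, 5 passed the low-count filter. In M1 against M0, 1 rose, 3 fell and 1 was not called. In M2 against M0, 2 rose and 1 fell. Ccl8, a further monocyte chemoattractant, rose from a median of 1.75 CPM in M0 to 111 CPM in M1 (log2 fold change 5.80 ± 0.36, SE; adjusted p = 7.26e-18), like Ccl12, and to 5.5 CPM in M2 (1.82 ± 0.36, SE; adjusted p = 1.73e-05). Ccl6, a relative of Ccl9, fell in M1 by 1.09 on the log2 scale (adjusted p = 2.32e-06) and had a median of 550 CPM in M0, 318 CPM in M1 and 771 CPM in M2. Ccl28, a mucosal chemokine, had medians of 0.132 CPM in M0 and 0.799 CPM in M2 (log2 fold change 2.47, adjusted p = 1.05e-08), and Ccl25 and Ccl27a did not exceed 4.11 and 0.923 CPM.

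Of 15 CC and atypical chemokine receptors, 7 passed the filter, with 3 higher and 3 lower in M1 against M0 and 3 higher and 1 lower in M2 against M0. Ccr2, the receptor of Ccl2, rose in M1, from a median of 54.9 to 146 CPM (1.14 ± 0.16, SE; adjusted p = 6.28e-08). Ccr1 fell in M1 from a median of 65.1 to 32.9 CPM (adjusted p = 4.59e-07) and rose in M2 to 174 CPM (adjusted p = 4.74e-13). Ccr3, the receptor of Ccl24, fell in M1 from a median of 60.4 to 2.44 CPM (log2 fold change -4.75 ± 0.20, SE; adjusted p = 3.35e-23). Ccrl2, an atypical receptor that binds chemerin, rose in M1 from a median of 11.01 to 44.7 CPM (adjusted p = 2.80e-17) and fell in M2 to 6.42 CPM. Ackr4, a scavenging receptor, was at 0 in all 15 M1 libraries and had medians of 0.0812 CPM in M0 and 0.746 CPM in M2 (adjusted p = 9.23e-09). Ccr4, the receptor of Ccl17 and Ccl22, did not exceed 0.0416 CPM in any library. None of these ligands and receptors was called between genotypes.

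All 7 macrophage markers averaged over 1 CPM in each polarization and summed to between 9583 and 33188 CPM. Markers of other cells were low but not absent. The 5 M1 markers summed to between 1338 and 6727 CPM in M1 and at most 38.4 CPM in M0, and the 5 M2 markers summed to at least 4929 CPM in M2 and at most 914 CPM in M0. Dendritic cell markers summed to 209 to 432 CPM in M1, where 4 of 6 had a mean under 1 CPM, and at most 2.31 CPM in M0 and 14.2 CPM in M2. Nearly all of the M1 sum was Clec9a (median 294 CPM). Another marker of that list was also higher in every M1 library than in any M0 or M2 library, while Flt3 did not exceed 0.317 CPM. Most of the M2 sum was Zbtb46, at 3.80 to 12.4 CPM. Neutrophil markers summed to 30.2 to 330 CPM in M0, 46.7 to 153 CPM in M1 and 17.8 to 82.3 CPM in M2. In M0, 3 of the 8 had a mean under 1 CPM, while S100a9 and Ngp reached 125 and 77.7 CPM. Ly6g did not exceed 0.461 CPM in any library. Fibroblast markers summed to 17.1 to 89.6, 6.70 to 20.8 and 9.53 to 33.0 CPM in M0, M1 and M2. Eosinophil markers reached 16.2 CPM in M2 through Siglecf, with Epx at no more than 0.18 CPM, and mast cell and basophil markers stayed at or under 2.88 CPM. T and B cell markers reached 46.7 and 11.8 CPM in M0 through Cd4 and Cd79b, with Cd3e at no more than 0.122 CPM and Cd79a at no more than 0.161 CPM. The part of other cells in the results was not tested.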

How the data were processed

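RNA was sequenced from 45 macrophage cultures by stranded mRNA libraries and single reads of 50 bases. The authors deposited counts, which are unnormalized reads per Ensembl gene, and CPM for 11900 genes, which they scaled to the reads in the genes of that table. Whole reads recovered from the CPM table equalled the counts for 100% of values, within 0.01 reads. The methods and processing notes name TrimGalore, HISAT2 and mm10, and the series description names Cutadapt and STAR. The counting tool, annotation and use of strand are not given in the sources used here. Of 29307 identifiers, 29081 matched GENCODE. No pair of libraries was identical.

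The authors state limma-voom. Here counts were fitted in R 4.3.3 with edgeR 4.0.16 (filterByExpr over the 9 groups, TMM, glmQLFit with robust dispersions), with Benjamini-Hochberg adjustment over 12905 genes and calls at an adjusted p under 0.05. A standard error is the log2 fold change over the square root of F. Alternatives used limma 3.58.1, DESeq2 1.42.0, other filters, blocks and omitted mice. The fit was tested on simulated counts. Groups were taken from the labels, and the labels do not say that cultures of a genotype and number came from 1 mouse, so p-values may measure partly technical spread. The library totals limit values near 0 most. The members and all lists were chosen with earlier results of these data known. All members are named. Other ligands and receptors are named by highest mean CPM, up to 6 a list, except that 1 receptor and 1 marker counted in these lists are not reported here, and like genes by r over 45 libraries, the 2 highest per member. Markers are named where a result turned on them. Deviations of libraries with the same number correlated over 9522 genes at r over 0.1 in 15 of 15 pairs between genotypes in M0 (0.12 to 0.86) and in M1 (0.28 to 0.87) and in 13 of 15 in M2, so the number pairs the samples in M0 and M1.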

Additional observations from a re-analysis of the deposited data

Results flagged for a closer look

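Of 85 groups of 5 libraries with any reads, 8 held a library whose distance from its nearest neighbour exceeded Dixon's 95% limit as a share of the range. A rate of 1 in 20 would give 4.25 here, but that rate holds for independent groups of normally spread values. These groups share mice and numbers, so the count cannot be set against chance. The values are given without explanation. In Famin p.254I mouse 4, Ccl5 was 563 CPM in M0 with the next highest library at 11.4 CPM, and 288 CPM in M2 with the next at 15.7 CPM. In the same mouse, Ccl12 was 7.92 CPM in M2 with the next at 2.22 CPM. In M1, Ccl5 was 93.3 CPM in Famin p.254I mouse 2 with the next lowest at 641 CPM, and 124 CPM in Famin p.254V mouse 2 with the next at 643 CPM. Ccl12 was 24.6 CPM in Famin p.254V mouse 2 in M1, with the next lowest at 42.5 CPM. Ccl24 was 50.8 CPM in Famin p.254V mouse 2 in M2, with the next highest at 24.5 CPM. Ccl17 in Famin p.254V M0 was 0.0328 CPM in mouse 1 and 0 in the other 4 libraries, which is a single read. A read beside 4 libraries at 0 always passes this limit.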

How the results depend on the processing

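The members called from M0 to M1 numbered 7 and ranged from 6 to 8 over the alternatives (7 to 8 without 1 mouse), those from M0 to M2 numbered 8 (8 without 1 mouse) and those between M1 and M2 numbered 10 (10 without 1 mouse). Requiring at least 10 counts in every library gave 5 from M0 to M2 and 7 between M1 and M2, because Ccl17, Ccl22 and Ccl24 no longer entered the test. For Famin p.254V against Famin p.254I averaged over polarizations, 1 member, Ccl5, was called by DESeq2 (-2.52, adjusted p = 0.00932) and without mouse 2 of Famin p.254I (-2.81, adjusted p = 0.0393), so the count without 1 mouse ranged from 0 to 1. No member was called in any other genotype comparison under any alternative run. With the replicate block, 8, 8 and 10 members were called in the 3 polarization comparisons, and beside Ccl22 in M1 (1.67, adjusted p = 0.0164) it changed no other call. Ccl22 in M1 was also called by DESeq2 (1.63, adjusted p = 3.76e-04) and with only the libraries compared (1.63, adjusted p = 7.42e-06). Over single members, 7 values became called, and 0 called values lost their call or changed direction. Chosen after seeing the data were the fits without the libraries numbered 2, without the M0 library of Famin p.254I mouse 4, without the M1 library of mouse 5, with a block in each polarization and on reads recovered from the CPM table, which called 9362, 9293 and 9604 genes in M1 against M0, M2 against M0 and M1 against M2. The calls over all genes moved more than those of the members: 34 for Famin p.284R against Famin p.254I in M1 became 343 with the block within each polarization, 64 with the block over all libraries and 0 without mouse 5 of Famin p.284R, 10 against Famin p.254V became 325, 36 and 0, and 2 averaged against Famin p.254I became 78 with the block within each polarization and 11 by DESeq2. DESeq2 gave 64 and 21 and limma-voom 11 and 0 for the M1 comparisons. The cause was not tested. All 90 group means were within 1 SD under total-count CPM and under the authors' CPM. Depth limits Ccl17 outside M2, where 15 libraries hold 1 read in M0 and 0 in M1, and Ccl24 in M1.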
